A study of Arabidopsis thaliana with 24 samples.

Results

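Of the 22279 genes in the files, 27 were nearly silent, by counted reads, in mock-treated Arabidopsis thaliana leaves but read in leaves given abscisic acid (ABA). They were chosen on their levels: a mean below 1.5 over the 12 mock libraries and of at least 8 over the 12 ABA libraries, both in CPM, the gene's count scaled to the library's total. The mock limit alone was met by 9998 genes, of which 4203 had 0 counts in all 24 libraries. The difference between ABA and mock leaves therefore chose the genes and is given below as a description with no test. The rule averaged over the genotypes, so tests were run on differences between genotypes, although a single library with a very high value could carry a gene past the threshold. Leaves of 3-week-old plants of 4 genotypes were sampled under 2 treatments with 3 biological replicates each, giving 24 libraries. Delta28, K>R 1-9 and K>R 3 are lines in an h2a.z null background that express HTA11, an H2A.Z gene, in changed form. In Delta28 the protein lacks 28 residues at its N-terminal end, K>R 1-9 has arginine in place of all 9 lysines of the N-terminal tail, and K>R 3 has arginine in place of the third lysine alone, residue 13. WT was the reference, and no line with unmodified HTA11 in the null background was analysed here, so a mutant also differs from WT in carrying a transgene in a null background. What promoter drives the transgene, and how many independent lines were used, were not given in the sources used here. Leaves were brushed with 10 uM ABA or with mock (DMSO in water), each holding 0.01% of the surfactant SilWet L-77, and were taken after 4 h.

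ABA is the hormone of drought and salt stress. It binds PYR/PYL/RCAR receptors, which then inhibit clade A protein phosphatases 2C and so release SnRK2 kinases, and these phosphorylate bZIP factors that bind the ABA-responsive element (ABRE) of promoters. The SWR1 complex places the variant histone H2A.Z in nucleosomes near transcription starts and, in Arabidopsis, over the bodies of lowly expressed and stress-responsive genes. Its N-terminal tail carries lysines that can be acetylated, which a change to arginine prevents.

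In ABA leaves the means of the 27 genes over 12 libraries ran between 8.09 and 119 CPM with a median of 13.1 CPM, and in mock leaves between 0.0108 and 1.42 CPM with a median of 0.932 CPM. Of the 324 single values in mock libraries, 122 were 0, whereas 2 of the values in ABA libraries were 0. For 16 of the 27 genes every ABA library lay above every mock library. With genotypes compared in ABA leaves, no gene of the 27 passed edgeR's quasi-likelihood test at an adjusted p of 0.05 in any of 6 pairwise comparisons. The difference between Delta28 and WT was positive for 23 of the 27, for 78 of 84 other ABA-raised genes and for 51.4% of all tested genes, and for 16 of the 27 without Delta28 ABA replicate 2. That last fit kept all WT replicates. In mock leaves 1 gene passed in 1 of 3 comparisons, AMY1 in K>R 1-9 against WT, where 0.245% of all tested genes passed, and that call was lost in 5 of 6 fits with a library left out.

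Library totals ran between 1565518 and 15086279 counts with a median of 7142427, so that 1.5 CPM stood for 2.35 reads in the shallowest mock library and 8 CPM for 25.4 reads in the shallowest ABA library. In bulk leaf RNA, fewer cells expressing a gene and less RNA per cell cannot be told apart. The deposited gene models lacked the exon with the lowest coordinate for 11593 of the 11674 genes with 1 transcript that could be compared with RefSeq. A minus-strand gene thus lacks its 3′ end, where these libraries are read. Minus-strand genes held between 12.6% and 17.6% of a library's counts. Of the 27 genes 15 lie on the minus strand, against 26 of the 84 other ABA-raised genes and 42.3% of tested genes. The models that could be compared, those of 15 of the 27 on either strand, all lacked that exon. For the minus-strand genes, nearly silent describes the reads counted, and whether uncounted reads kept their mock means low was not tested. Levels are therefore compared between libraries, and the order of genes by CPM is not an order of transcript levels. HTA9, another H2A.Z gene, stood between 301 and 436 CPM in the 6 WT libraries and between 53.7 and 109 CPM in the 18 mutant libraries. HTA11 stood between 2.52 and 9.51 CPM in Delta28, between 393 and 914 CPM in K>R 1-9, between 5.87 and 38.4 CPM in 5 of the 6 K>R 3 libraries and between 4.70 and 10.3 CPM in WT. The remaining K>R 3 library, mock replicate 2, had 870 CPM, a value inside the K>R 1-9 range. No value in ABA leaves rests on that library except through the shared estimate of the spread. All 8 leaf mesophyll markers were read, and their summed level in ABA leaves was 4125 to 10150.3 CPM in Delta28, 7397 to 7776 CPM in K>R 1-9, 2660 to 8805 CPM in K>R 3 and 7430 to 9796 CPM in WT. Of the 5 embryo markers LEC1 and LEC2 were at 0 in every ABA library, and the sum of the 5 reached at most 2.83 CPM. All but ABI3 lie on the minus strand, so their low counts carry the limit given above.

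By their RefSeq products the 27 genes are a mixed set, with 7 in families often listed as ABA-responsive and 20 in none of these. The 7 are HIPP22, a heavy-metal-associated isoprenylated protein, AT2G42560 and AT4G21020, late embryogenesis abundant (LEA) proteins that protect cells on drying, HAI1, a clade A phosphatase that damps ABA signalling, AT2G37870, a lipid transfer protein, SAG29, a sugar transporter of senescing tissue, and HSFA6B, a heat shock factor. Among the 20 others, 4 products are membrane carriers, namely AT2G41190 of the amino acid transporters, AT1G69480 of the EXS family, the MATE efflux protein ZF14 and the organic cation/carnitine transporter OCT1. A further 6 are enzymes: the alpha-amylase-like AMY1, the GDSL lipase AT3G50400, the cytochrome P450 CYP81G1, the peroxidase AT4G26010, the glycosyltransferase AT1G53100 and the ATPase DAA1. Regulators and binding proteins were the LOB domain factor LBD1, the Yippee zinc-binding protein AT3G55890, the BTB and TAZ domain scaffold BT2, the TRAF-like protein ZW9, the EEIG1/EHBP1 protein AT2G25460 and the cysteine-rich transmembrane protein AT1G05340. The remaining AT5G39520, AT1G50040, AT5G15190 and AT3G27025 have no known function by their products.

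The ABRE core, ACGTG on either strand, was found in the promoters of 18 of the 27 genes (66.7%), in 49 of 84 other ABA-raised genes (58.3%) and in 26.9% of 22232 RefSeq promoters of genes in the files. The 84 are the genes with a mock mean of at least 1.5 CPM, an ABA mean of at least 8 CPM and a ratio of these means at least as large as that of the thresholds. Windows ran from 250 bases before to 50 bases after the annotated start, 300 bases in all. The G-box CACGTG, which holds an ACGTG on each strand and is counted as a pair of core matches, stood in 10 of the 27 (37.0%), in 32.1% of the 84 and in 8.01% of all. The longer forms ACGTGGC and ACGTGTC, which also hold the core, stood in 5 (18.5%) and 6 (22.2%) of the 27, in 16.7% and 23.8% of the 84 and in 4.38% and 4.59% of all promoters. The cold and drought element CCGAC stood in 5 of the 27 (18.5%), in 19.0% of the 84 and in 15.2% of all, and the seed element CATGCA in 1 of the 27 (3.70%), in 11.9% of the 84 and in 9.24% of all. These shares describe the letters and do not show that a factor binds.

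**Figure D1:**
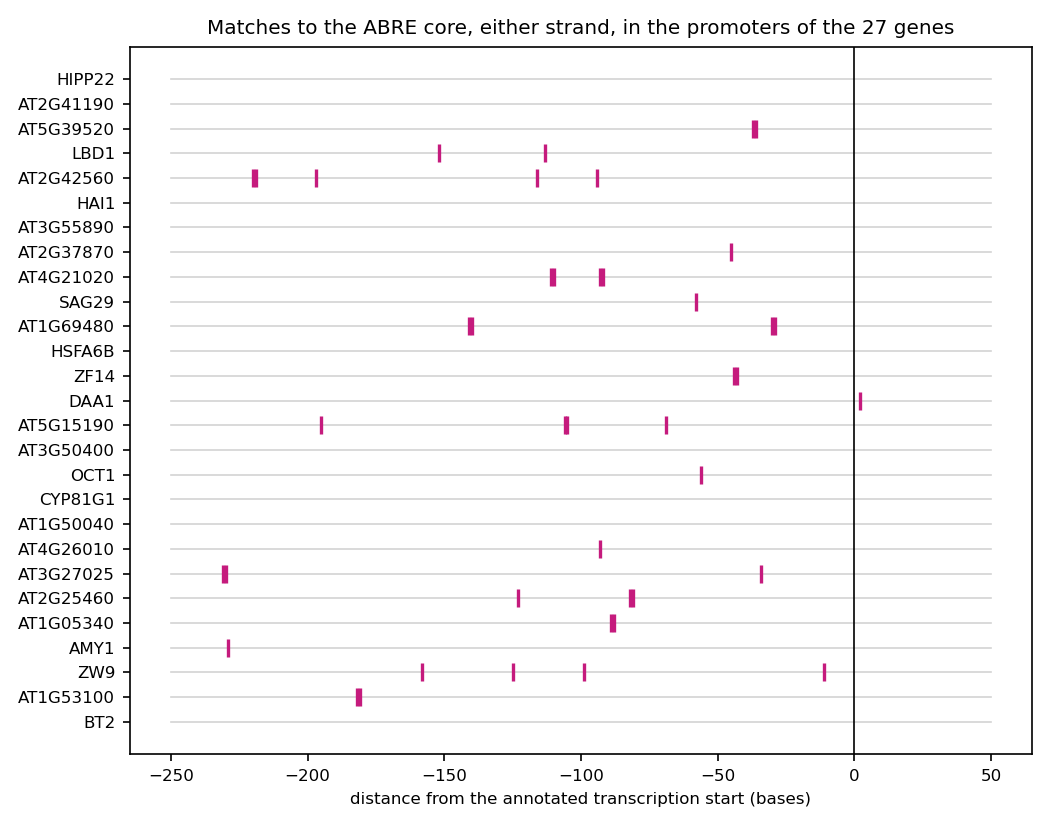
Position of each match to the ABRE core (bars, either strand) in the promoters of the 27 genes, 1 gene a line, with distance from the annotated transcription start in bases on the x axis. Of 43 matches, 1 lies after the start, and 9 genes have none. Wide bars are overlapping pairs in a G-box.

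Promoters are printed for 5 genes, to show how the core stands in promoters with it and to give one without it: 3 of the genes outside the named families with the highest CPM, a checked gene model and a match (AT5G39520, LBD1 and ZF14), ZW9 with the most core matches outside a G-box, and HIPP22, which had the highest CPM of all 27 and no match. Each is the 250 bases before the start, 5′ to 3′ along the gene, from RefSeq on TAIR10.1, with ACGTG on either strand in capitals; the files name no build, and genes were matched by locus. They lie at chr5:15825567-15825816, minus strand (AT5G39520), chr1:2442320-2442569, plus strand (LBD1), chr1:21652738-21652987, plus strand (ZF14), chr1:21614170-21614419, minus strand (ZW9) and chr1:8138864-8139113, plus strand (HIPP22).
AT5G39520: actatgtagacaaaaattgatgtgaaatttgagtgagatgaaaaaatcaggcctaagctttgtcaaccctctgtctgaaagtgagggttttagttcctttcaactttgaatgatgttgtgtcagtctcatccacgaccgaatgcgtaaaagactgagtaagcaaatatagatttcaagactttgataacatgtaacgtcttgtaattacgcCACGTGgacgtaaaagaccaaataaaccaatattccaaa
LBD1: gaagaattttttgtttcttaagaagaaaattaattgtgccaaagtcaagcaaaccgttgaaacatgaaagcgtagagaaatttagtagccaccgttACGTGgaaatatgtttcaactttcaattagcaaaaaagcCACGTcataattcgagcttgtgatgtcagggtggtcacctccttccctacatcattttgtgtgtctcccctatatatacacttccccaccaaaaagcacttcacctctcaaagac
ZF14: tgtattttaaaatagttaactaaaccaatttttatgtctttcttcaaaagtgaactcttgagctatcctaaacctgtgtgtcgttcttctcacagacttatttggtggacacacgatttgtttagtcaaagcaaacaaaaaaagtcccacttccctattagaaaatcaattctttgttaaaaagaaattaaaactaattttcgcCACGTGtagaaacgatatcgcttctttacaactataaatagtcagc
ZW9: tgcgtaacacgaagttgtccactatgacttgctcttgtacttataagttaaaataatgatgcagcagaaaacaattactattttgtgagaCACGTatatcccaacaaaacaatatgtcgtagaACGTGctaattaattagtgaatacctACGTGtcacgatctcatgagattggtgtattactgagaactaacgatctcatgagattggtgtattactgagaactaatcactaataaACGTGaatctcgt
HIPP22: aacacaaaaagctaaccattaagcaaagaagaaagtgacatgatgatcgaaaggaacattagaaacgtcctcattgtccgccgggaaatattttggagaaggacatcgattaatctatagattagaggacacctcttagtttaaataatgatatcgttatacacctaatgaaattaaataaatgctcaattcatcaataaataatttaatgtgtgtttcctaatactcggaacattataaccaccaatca
AT5G39520 and ZF14 each hold a single G-box within the 50 bases before the start, LBD1 holds cores on opposite strands, and ZW9 holds 4 cores. Over the 27 promoters the cores were densest between 150 and 50 bases before the start, with 0.407 matches a promoter in each 50-base step there, against 0.0781 (150 to 100 bases before) and 0.108 (100 to 50 bases before) over all promoters.

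Among the membrane carriers, OCT1, a plasma membrane carnitine transporter, separated 1 genotype from the others. In ABA leaves OCT1 stood at 37.5, 19.4 and 16.7 CPM in Delta28, at 10.2, 10.9 and 4.36 CPM in K>R 1-9, at 7.02, 5.09 and 5.14 CPM in K>R 3 and at 3.44, 15.2 and 2.85 CPM in WT. Its 3 Delta28 values were above all 9 others. In the 12 mock libraries OCT1 had 1 count in all. ZF14, of the MATE exporters, stood at 6.93, 93.3 and 3.77 CPM in Delta28, at 6.42, 5.60 and 4.95 CPM in K>R 1-9, at 7.75, 12.1 and 1.01 CPM in K>R 3 and at 8.45, 5.57 and 1.99 CPM in WT. Only Delta28 replicate 2 stood apart, and its fellow Delta28 replicates were within the WT range. AT2G41190, an amino acid transporter, stood at 36.5, 123 and 30.8 CPM in Delta28, at 39.5, 49.7 and 9.71 CPM in K>R 1-9, at 18.9, 73.0 and 45.3 CPM in K>R 3 and at 21.3, 70.5 and 14.9 CPM in WT, so that all 4 groups overlapped. AT1G69480, whose EXS domain is shared with phosphate exporters, stood at 15.6, 45.1 and 15.4 CPM in Delta28, at 12.6, 11.6 and 7.73 CPM in K>R 1-9, at 12.4, 12.1 and 10.4 CPM in K>R 3 and at 11, 23.3 and 7.03 CPM in WT. Its Delta28 values lay above all K>R 1-9 and K>R 3 values and overlapped WT.

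**Figure D2:**
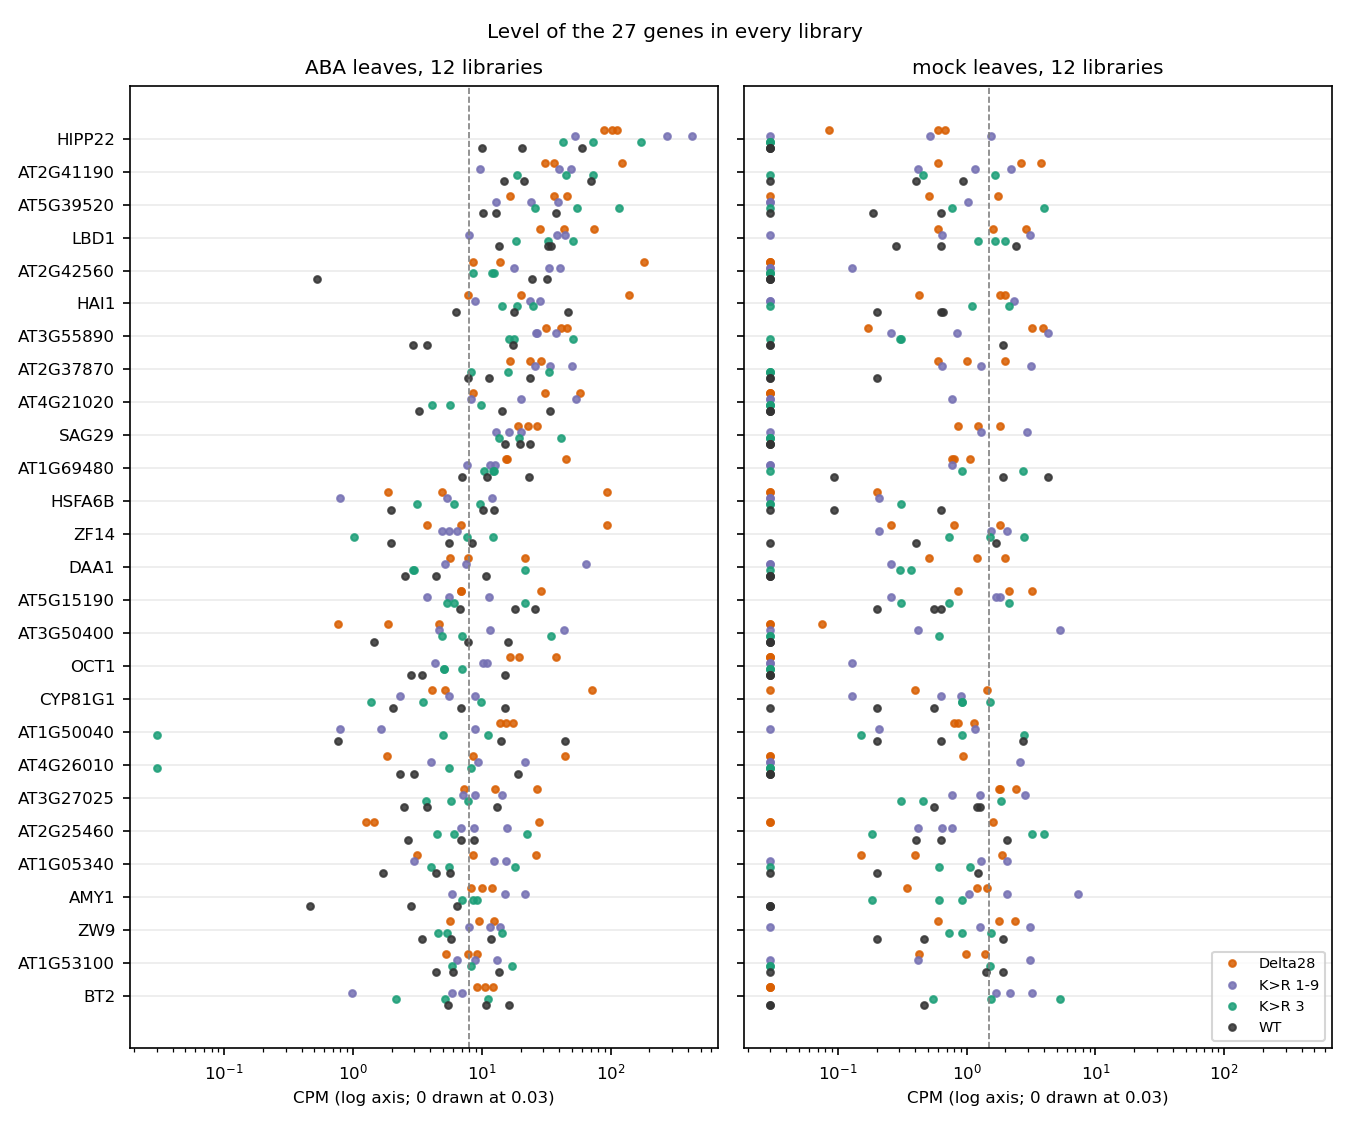
CPM of each of the 27 genes in every library (points, log axis, 0 drawn at 0.03), with ABA leaves on the left and mock leaves on the right, coloured by genotype. Dashed lines mark the thresholds of 8 CPM (ABA) and 1.5 CPM (mock) that chose the genes. In ABA leaves single libraries reach 425 CPM for HIPP22 and 183 CPM for AT2G42560, and the genotypes overlap for most genes.

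Among the enzymes, AMY1, an alpha-amylase-like protein of starch breakdown, stood in ABA leaves at 10.0, 8.30 and 11.9 CPM in Delta28, at 15.2, 5.89 and 21.8 CPM in K>R 1-9, at 9.20, 7.05 and 8.48 CPM in K>R 3 and at 2.82, 6.43 and 0.464 CPM in WT. All Delta28 and K>R 3 values lay above all WT values, and K>R 1-9 overlapped WT by 1 library. AT3G50400, a GDSL lipase, ran the other way in Delta28, with 0.761, 4.68 and 1.89 CPM there, 11.5, 4.63 and 43.8 CPM in K>R 1-9, 34.6, 4.89 and 7 CPM in K>R 3 and 16.0, 7.87 and 1.46 CPM in WT. Every K>R 3 value was above every Delta28 value. CYP81G1, a cytochrome P450, stood at 5.18, 72.0 and 4.09 CPM in Delta28, at 8.91, 2.32 and 5.55 CPM in K>R 1-9, at 9.93, 1.37 and 3.50 CPM in K>R 3 and at 6.89, 15.2 and 2.05 CPM in WT. DAA1, an ATPase, stood at 7.76, 21.6 and 5.66 CPM in Delta28, at 7.58, 64.3 and 5.15 CPM in K>R 1-9, at 2.91, 21.7 and 2.96 CPM in K>R 3 and at 4.38, 10.8 and 2.52 CPM in WT. In both genes 1 library held the highest value, Delta28 replicate 2 for CYP81G1 and K>R 1-9 replicate 2 for DAA1, and the rest overlapped. The peroxidase AT4G26010 ranged from 0 to 43.9 CPM over the 12 ABA libraries and the glycosyltransferase AT1G53100 from 4.38 to 17 CPM, with all groups overlapping.

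Among the regulators, AT3G55890, a Yippee zinc-binding protein, stood in ABA leaves at 46.1, 41.4 and 31.4 CPM in Delta28, at 26.2, 26.7 and 37.4 CPM in K>R 1-9, at 16.2, 51.1 and 17.7 CPM in K>R 3 and at 3.76, 17.6 and 2.92 CPM in WT. All Delta28 and K>R 1-9 values were above all WT values, and K>R 3 overlapped WT by 1 library. LBD1, a plant-specific transcription factor of the LOB family, stood at 43.4, 73.7 and 28.3 CPM in Delta28, at 38.3, 44.2 and 7.93 CPM in K>R 1-9, at 32.9, 51.5 and 18.5 CPM in K>R 3 and at 32.9, 34.8 and 13.7 CPM in WT, and its groups overlapped. BT2, an adaptor of cullin ubiquitin ligases, stood at 9.21, 12.2 and 10.7 CPM in Delta28, at 5.88, 7.05 and 0.991 CPM in K>R 1-9, at 11.1, 2.15 and 5.21 CPM in K>R 3 and at 16.3, 5.47 and 10.8 CPM in WT. Its K>R 1-9 values were all below its Delta28 values and overlapped WT. ZW9, of the TRAF-like proteins, ranged from 3.44 to 14.5 CPM over the 12 ABA libraries, AT2G25460 from 1.26 to 27.7 CPM and AT1G05340 from 1.72 to 26.3 CPM, with no separation of any genotype.

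Of the genes of unknown function, AT1G50040 stood in ABA leaves at 13.8, 15.4 and 17.6 CPM in Delta28, at 8.82, 1.64 and 0.793 CPM in K>R 1-9, at 11.1, 0 and 4.98 CPM in K>R 3 and at 44.5, 0.768 and 14.2 CPM in WT. The count of 0 in K>R 3 replicate 2 allows up to 0.587 CPM (3 counts, counting error alone), as does the count of 0 of AT4G26010 there. The Delta28 values of AT1G50040 were close together and above all K>R 1-9 and K>R 3 values, while WT spanned both. AT5G39520 stood at 36.7, 46.3 and 16.7 CPM in Delta28, at 38.8, 24 and 12.9 CPM in K>R 1-9, at 55.0, 116 and 25.8 CPM in K>R 3 and at 12.8, 37.8 and 10.1 CPM in WT, with all groups overlapping. AT5G15190 ranged from 3.76 to 28.6 CPM over the 12 ABA libraries and AT3G27025 from 2.50 to 26.9 CPM.

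For the 7 genes of the named families, values are given as context. HIPP22 stood in ABA leaves at 88.9, 113 and 103 CPM in Delta28, at 272, 425 and 53.1 CPM in K>R 1-9, at 42.9, 171 and 73.5 CPM in K>R 3 and at 10.0, 60.1 and 20.6 CPM in WT. Its Delta28 values were all above WT, and K>R 1-9 and K>R 3 each overlapped WT by 1 library. AT2G37870, the lipid transfer protein, stood at 28.9, 16.5 and 23.6 CPM in Delta28, at 34.1, 49.9 and 26.0 CPM in K>R 1-9, at 8.23, 33.3 and 16.0 CPM in K>R 3 and at 7.83, 23.6 and 11.5 CPM in WT, and K>R 1-9 lay above WT in every library. The LEA gene AT2G42560 stood at 8.52, 183 and 13.8 CPM in Delta28, at 33.1, 40.8 and 17.8 CPM in K>R 1-9, at 12.4, 8.61 and 12 CPM in K>R 3 and at 24.4, 32.3 and 0.530 CPM in WT. HSFA6B stood at 4.95, 94.1 and 1.89 CPM in Delta28, at 12, 5.41 and 0.793 CPM in K>R 1-9, at 3.15, 6.07 and 9.73 CPM in K>R 3 and at 12.5, 10.3 and 1.99 CPM in WT. In both of these genes Delta28 replicate 2 alone was far above the rest. HAI1 shared that pattern, with 138 CPM in Delta28 replicate 2 and between 6.36 and 46.4 CPM in the 11 other ABA libraries. AT4G21020, the other LEA gene, ranged from 3.25 to 57.5 CPM over the 12 ABA libraries and SAG29 from 12.9 to 41.3 CPM, with overlapping groups.

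Across the 27 genes the highest ABA mean was in Delta28 for 14, in K>R 1-9 for 6, in K>R 3 for 4 and in WT for 3, and the lowest in Delta28 for 2, in K>R 1-9 for 7, in K>R 3 for 7 and in WT for 11. The ratio of the highest to the lowest genotype mean had a median of 3.24 and ran between 1.40 for AT1G53100 and 8.26 for HIPP22, with 21 genes at a ratio of at least 2. Replicates spread widely beside this, since the mean coefficient of variation within a group had a median of 71.5% over the genes. Delta28 ABA replicate 2 held the highest of the 12 ABA values for 13 genes, and WT ABA replicate 3 the lowest for 10. Without Delta28 ABA replicate 2 the highest mean was in Delta28 for 5, in K>R 1-9 for 10, in K>R 3 for 6 and in WT for 6, and 20 of the 27 genes still met the rule. The other genotypes kept their replicate 2, which by summed CPM was the highest ABA library in each. That comparison is therefore uneven, and these counts were not taken with replicate 2 left out of every genotype. Genes that met the rule only with Delta28 ABA replicate 2 were ZF14, HSFA6B, CYP81G1, AT4G26010, AT2G25460, AT1G05340 and BT2. Taken within a genotype alone, the rule held for 19 of the 27 in Delta28, 16 in K>R 1-9, 15 in K>R 3 and 18 in WT, and for 4 of them in all 4 genotypes.

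The comparison of each mutant with WT in ABA leaves asked whether a changed H2A.Z tail altered the level these genes reach. All 27 passed the filter on low counts, among 13874 genes tested. For Delta28 against WT, the lowest p-values were those of OCT1, with a log2 fold change of 1.92 (SE 0.58, edgeR adjusted p = 0.313), AT3G55890 at 2.42 (SE 0.80, edgeR adjusted p = 0.334) and ZF14 at 2.94 (SE 0.97, edgeR adjusted p = 0.337). Each mean on the CPM scale was 24.5 ± 11.3 CPM in Delta28 and 7.15 ± 6.95 CPM in WT for OCT1, and 39.6 ± 7.49 CPM in Delta28 and 8.08 ± 8.23 CPM in WT for AT3G55890 (SD, n = 3 each). None of the 27 passed edgeR's quasi-likelihood test, where 0.115% of all tested genes did; 7 of the 27 had an unadjusted p under 0.05, against 8.04% of all tested genes, and DESeq2 also called none. The log2 fold changes had a median of 1.07 over the 27, of 0.02 over all tested genes and of 0.79 over the 84 other ABA-raised genes. The groups did not overlap, with Delta28 higher, for 4 of the 27 (3.08% of all tested genes), HIPP22, AT3G55890, OCT1 and AMY1, and with Delta28 lower for none (12% of all). Without Delta28 ABA replicate 2 the median of the 27 was 0.28 and 16 of them were positive, ZF14 stood at 0.21, and HSFA6B turned to -1.04. Both genes met the rule only with that library, so a high Delta28 value helped to choose them. The Delta28 counts and medians of the 27 also hold the other genes named above as meeting the rule only with it. In the fit without Delta28 ABA replicate 2, WT kept its own replicate 2, its highest ABA library by summed CPM.

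For K>R 1-9 against WT, the lowest p was that of HIPP22, with a log2 fold change of 3.18 (SE 0.71, edgeR adjusted p = 0.0916) and means of 250 ± 187 CPM in K>R 1-9 and 30.2 ± 26.4 CPM in WT (SD, n = 3 each). AMY1 followed at 2.33 (SE 0.75, edgeR adjusted p = 0.225), then AT2G37870 at 1.51 (SE 0.51, edgeR adjusted p = 0.257) and AT3G55890 at 2.05 (SE 0.79, edgeR adjusted p = 0.313). None of the 27 passed edgeR's test (0.101% of all tested genes did), 5 had an unadjusted p under 0.05 (11.4% of all), and DESeq2 called 1, HIPP22, at an adjusted p of 0.0385. The median log2 fold change was 0.49 over the 27, -0.02 over all tested genes and 0.47 over the 84, with 19 of the 27 positive. The groups did not overlap, with K>R 1-9 higher, for 2 (4.19% of all tested genes), AT3G55890 and AT2G37870, and with K>R 1-9 lower for none (16.4% of all).

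For K>R 3 against WT, the lowest p was again that of HIPP22, at a log2 fold change of 1.69 (SE 0.67, edgeR adjusted p = 0.482), followed by AT5G39520 at 1.70 (SE 0.73, edgeR adjusted p = 0.519). None of the 27 passed edgeR's test (0.00721% of all tested genes did), 3 had an unadjusted p under 0.05 (8.64% of all), and DESeq2 called none. The median was 0.36 over the 27, 0.01 over all tested genes and 0.36 over the 84, with 15 of the 27 positive. AMY1 was the 1 gene whose K>R 3 values all lay above WT (4.76% of all tested genes), and none had them all below (7.4% of all). These 3 comparisons share the WT libraries, and WT ABA replicate 3 held the lowest of the 12 ABA values for 10 genes. Without it the medians of the 27 were 0.72 for Delta28, 0.20 for K>R 1-9 and 0.00 for K>R 3. Without WT ABA replicate 2 they were 1.65 for Delta28, 0.98 for K>R 1-9 and 0.71 for K>R 3, with 20 of the 27 positive for K>R 3. Without K>R 3 ABA replicate 2 the K>R 3 median turned to -0.18, with 8 of the 27 positive.

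**Figure D3:**
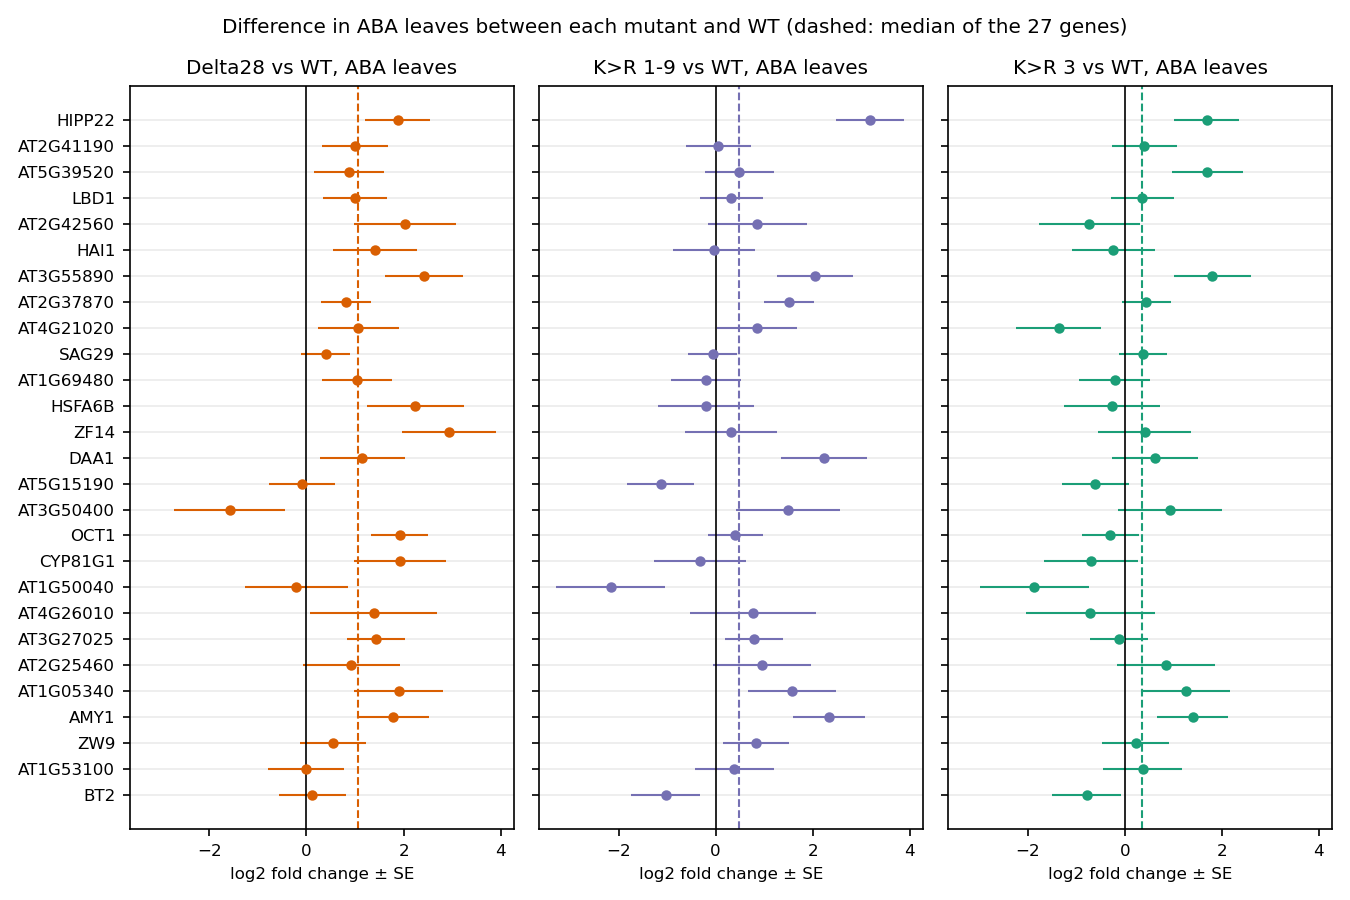
Log2 fold change between each mutant and WT in ABA leaves for the 27 genes, 1 gene a line, as estimate (point) and SE (bar), with the median of the 27 dashed. The median lies at 1.07 for Delta28, 0.49 for K>R 1-9 and 0.36 for K>R 3. No single gene passed the test.

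Between K>R 3 and Delta28 the lowest p was that of OCT1, whose log2 fold change was -2.22 (SE 0.60, edgeR adjusted p = 0.194), with 5.75 ± 1.10 CPM in K>R 3 and 24.5 ± 11.3 CPM in Delta28 (SD, n = 3 each). None of the 27 passed edgeR's test between K>R 3 and Delta28 (0.115% of all tested genes did), 8 had an unadjusted p under 0.05 (11.2% of all), and DESeq2 called none. The 8 include HSFA6B, ZF14 and CYP81G1, which met the rule only with Delta28 ABA replicate 2. A high Delta28 value thus helped to choose genes of the 27, so the 8 and the medians against Delta28 cannot be read as an excess. The groups did not overlap, with K>R 3 lower, for AT1G69480, OCT1 and AT1G50040 (4.55% of all tested genes), and with K>R 3 higher for AT3G50400 (10.7% of all). The median log2 fold change was -0.64 over the 27, -0.0020 over all tested genes and -0.36 over the 84, and it was -0.07 over the 27 without Delta28 ABA replicate 2. For K>R 1-9 against Delta28, the lowest p was that of ZF14 at -2.61 (SE 0.95, edgeR adjusted p = 0.372), a value that turned to 0.087 without Delta28 ABA replicate 2. AT3G50400 stood at 3.07 (SE 1.16, edgeR adjusted p = 0.397) and OCT1 at -1.51 (SE 0.58, edgeR adjusted p = 0.404). None passed edgeR's test (0.00721% of all tested genes did), 5 had an unadjusted p under 0.05 (10.1% of all), DESeq2 called none, and 4 lay below Delta28 without overlap (6.85% of all tested genes), AT1G69480, OCT1, AT1G50040 and BT2, and none above it (6.62% of all). HSFA6B, ZF14 and CYP81G1 are also among the 5, and BT2 too met the rule only with Delta28 ABA replicate 2, so the same limit holds. The median was -0.61 over the 27, -0.03 over all tested genes and -0.16 over the 84, and it was 0.32 over the 27 without Delta28 ABA replicate 2. Both medians without that library kept replicate 2 of the K>R line, its highest ABA library by summed CPM. For K>R 3 against K>R 1-9 none passed edgeR's test (0% of all tested genes did), 3 had an unadjusted p under 0.05 (6.36% of all), DESeq2 called none, and AT2G42560 alone lay lower in K>R 3 without overlap (2.87% of all tested genes), and none lay higher (8.16% of all). The median was -0.24 over the 27, 0.01 over all tested genes and -0.25 over the 84.

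A joint test of any difference among the 4 genotypes in ABA leaves called none of the 27 by edgeR (0.166% of all tested genes were called). Of the 27, 9 had an unadjusted p under 0.05 (33.3%), against 12% of all tested genes and 13 of the 84 other ABA-raised genes. These 9 include ZF14, HSFA6B and CYP81G1, which met the rule only with Delta28 ABA replicate 2. The choice of genes thus favoured a spread between genotypes, and the 33.3% cannot be read as an excess. The lowest adjusted p was 0.161, for HIPP22, and OCT1 followed at 0.18. DESeq2's likelihood ratio test on the ABA libraries called 3, HIPP22 (adjusted p = 0.00654), OCT1 (adjusted p = 0.0141) and AT3G55890 (adjusted p = 0.0361).

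The comparison of each mutant with WT in mock leaves asked whether the genes had another level without ABA. The reads are few, with 793 counts on the 27 genes in Delta28, 612 in K>R 1-9, 321 in K>R 3 and 222 in WT, each over 3 libraries. Depth differed between these groups, with totals of 29821235 counts in Delta28, 20268584 in K>R 1-9, 15216131 in K>R 3 and 17169999 in WT. Raw counts of the groups therefore cannot be compared directly. The filter on low counts was passed over all 24 libraries, and on mock libraries alone 11 of the 27 passed it and AMY1 did not. AMY1 stood at 0.343, 1.44 and 1.2 CPM in Delta28, at 7.36, 1.05 and 2.06 CPM in K>R 1-9, at 0.184, 0.616 and 0.917 CPM in K>R 3 and at 0 in all 3 WT libraries, which together allow up to 0.175 CPM (3 counts over the group). Every mutant library had AMY1 reads. The pooled AMY1 rate, as counted, was above that limit 5.57-fold in Delta28, 22.0-fold in K>R 1-9 and 3.39-fold in K>R 3. These folds rest on 29, 78 and 9 counts and leave out the counting error of the mutants. Only the K>R 1-9 difference passed edgeR's test (adjusted p = 0.0499). Of the 78 counts in K>R 1-9, 57 came from replicate 1, and the fold was 9.59 without it. Without WT mock replicate 3, the folds were 2.11 for Delta28, 8.34 for K>R 1-9 and 1.28 for K>R 3. The Delta28 fold was 3.43 without Delta28 mock replicate 2, and without K>R 3 mock replicate 3 the gene had 3 counts in K>R 3. The call in K>R 1-9 was lost with library totals alone (adjusted p = 0.0524), with the replicate block (adjusted p = 0.0828), without K>R 1-9 mock replicate 1 (adjusted p = 0.137) or replicate 3 (adjusted p = 0.0503), and without any of the 3 WT mock replicates, which were adjusted p = 0.0869, 0.128 and 0.307. For K>R 1-9 against WT 1 of the 27 was called by edgeR (0.245% of all tested genes), 8 had an unadjusted p under 0.05 (14.4% of all), and DESeq2 called 3, AMY1, SAG29 and AT2G37870. For Delta28 against WT edgeR called none (0.159% of all tested genes), 7 had an unadjusted p under 0.05 (8.88% of all), and DESeq2 called 1, SAG29. For K>R 3 against WT edgeR called none (0.00721% of all tested genes), 2 had an unadjusted p under 0.05 (12.9% of all), and DESeq2 called none; edgeR also called none of the 27 there without K>R 3 mock replicate 2.

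SAG29, the sugar transporter, stood in mock leaves at 0.857, 1.22 and 1.80 CPM in Delta28, at 1.29, 0 and 2.96 CPM in K>R 1-9 and at 0 in every K>R 3 and WT library. Its pooled rate, as counted, was above the limit in WT 6.72-fold in Delta28 and 9.32-fold in K>R 1-9, on 35 and 33 counts. Without WT mock replicate 3 these folds were 2.54 and 3.53, and the K>R 1-9 fold was 4.58 without K>R 1-9 mock replicate 3. AT2G37870 had 38 counts in Delta28, 30 in K>R 1-9, 0 in K>R 3 and 1 in WT, ratios to WT of 21.9 (95% counting interval 3.70 to 887) in Delta28 and 25.4 (4.22 to 1037) in K>R 1-9. These ratios were 8.29 and 9.62 without WT mock replicate 3. They were 12.4 in Delta28 without its replicate 2 and 16.6 in K>R 1-9 without its replicate 2. Without WT mock replicate 1, which held the single WT count, the rates as counted were 5.20-fold and 6.04-fold above the limit in WT. BT2 stood at 0 in all Delta28 libraries, at 3.23, 1.68 and 2.19 CPM in K>R 1-9, at 0.553, 1.54 and 5.35 CPM in K>R 3 and at 0, 0 and 0.469 CPM in WT. Its K>R 1-9 and K>R 3 values all lay above Delta28 and WT. These were 0 counts in Delta28, 50 in K>R 1-9, 43 in K>R 3 and 5 in WT, ratios to WT of 8.47 (3.40 to 27.2) in K>R 1-9 and 9.70 (3.85 to 31.4) in K>R 3. Of the 43 in K>R 3, 35 came from replicate 3, and the ratio was 3.17 without it. All 5 WT counts came from replicate 3. Without it the BT2 rate as counted was 5.35-fold above the limit in WT in K>R 1-9 and 6.12-fold above it in K>R 3. DAA1 had 38 counts in Delta28, 2 in K>R 1-9, 4 in K>R 3 and 0 in WT, which pooled to 1.27, 0.0987, 0.263 and 0 CPM. None of these 4 genes passed edgeR's test. In mock leaves Delta28 lay above WT without overlap for 7 of the 27 (6.71% of all tested genes and 24 of the 84 other ABA-raised genes), HIPP22, AT2G37870, SAG29, DAA1, AT5G15190, AT3G27025 and AMY1, and below it for none (10.1% of all). K>R 1-9 lay above WT without overlap for AT2G37870, AMY1 and BT2 (6% of all tested genes and 21 of the 84), and below it for none (12.6% of all). K>R 3 lay above WT without overlap for CYP81G1, AMY1 and BT2 (12.8% of all tested genes and 17 of the 84), and below it for none (9.89% of all). These genes also lay above WT without K>R 3 mock replicate 2, the library with HTA11 at 870 CPM. Without that library AMY1 in K>R 3 was 3.35-fold above the limit in WT, and the BT2 ratio to WT was 10.9. The separations from WT take a count of 0 as 0 CPM. Such a count allows up to 0.608, 1.92 and 0.281 CPM (3 counts) in WT mock replicates 1, 2 and 3. HIPP22, SAG29 and AMY1 in Delta28, and CYP81G1 and AMY1 in K>R 3, had every value under the limit of WT replicate 2, where each had 0 counts. HIPP22 had 1 count in Delta28 mock replicate 1. K>R 1-9 mock replicate 1 had the highest summed level of the 27 in mock leaves, 52.8 CPM, and without it 13 of the 27 were higher in K>R 1-9 than in WT, against 23 with it.

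**Figure D4:**
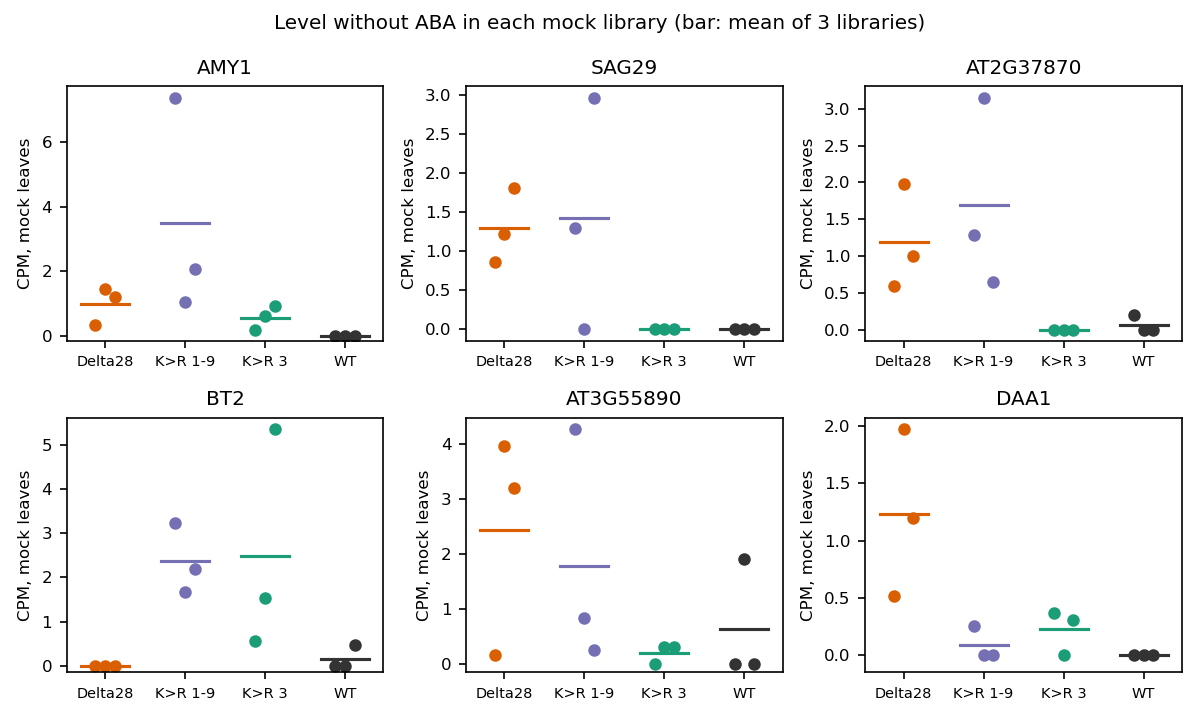
CPM in each mock library (points) for 6 of the 27 genes, with the mean of 3 libraries as a bar, on a linear axis. AMY1 has reads in all mutant libraries and none in WT, SAG29 in Delta28 and K>R 1-9 alone, and BT2 in K>R 1-9 and K>R 3 with none in Delta28.

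Summed over the 27 genes, the ABA level was 771 ± 510 CPM in Delta28, 675 ± 299 CPM in K>R 1-9, 491 ± 210 CPM in K>R 3 and 362 ± 177 CPM in WT (SD, n = 3 each). Without Delta28 replicate 2 the Delta28 sum was 478 CPM, below the full sums of K>R 1-9 and K>R 3, which kept their replicate 2. With replicate 2 left out of each of these genotypes as well, the sum was 538 CPM in K>R 1-9, 371 CPM in K>R 3 and 277 CPM in WT. The Delta28 sum then lay above that of K>R 3 and below that of K>R 1-9. Without HIPP22 the sum was 425 ± 112 CPM in K>R 1-9 (SD, n = 3). In mock leaves it was 25.6 ± 10.4 CPM in Delta28, 28.1 ± 21.5 CPM in K>R 1-9, 20.6 ± 7.82 CPM in K>R 3 and 12.6 ± 1.84 CPM in WT (SD, n = 3 each), and 15.8 CPM in K>R 1-9 without its replicate 1. The sum over the 84 other ABA-raised genes had the same order of means in ABA leaves, at 31501 CPM in Delta28, 30054 CPM in K>R 1-9, 26709 CPM in K>R 3 and 20340.4 CPM in WT, and without Delta28 replicate 2 it was 26659 CPM in Delta28, also below both full sums. With replicate 2 left out of the other genotypes too, the sum over the 84 was 28259 CPM in K>R 1-9, 21827 CPM in K>R 3 and 16929 CPM in WT. Its highest ABA library was also Delta28 replicate 2, at 41186 CPM, and its lowest WT replicate 3, at 14790 CPM. The 2 libraries that stood at the ends for the 27 genes thus stood at the ends for other ABA-raised genes as well. Their part in the differences was not tested beyond leaving each out. For both sums, replicate 2 was the highest ABA library and replicate 3 the lowest in every genotype. At each replicate number WT had the lowest ABA sum of the genotypes, for both sums. Whether same-numbered libraries share a source of spread in these genes was not tested.

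**Figure D5:**
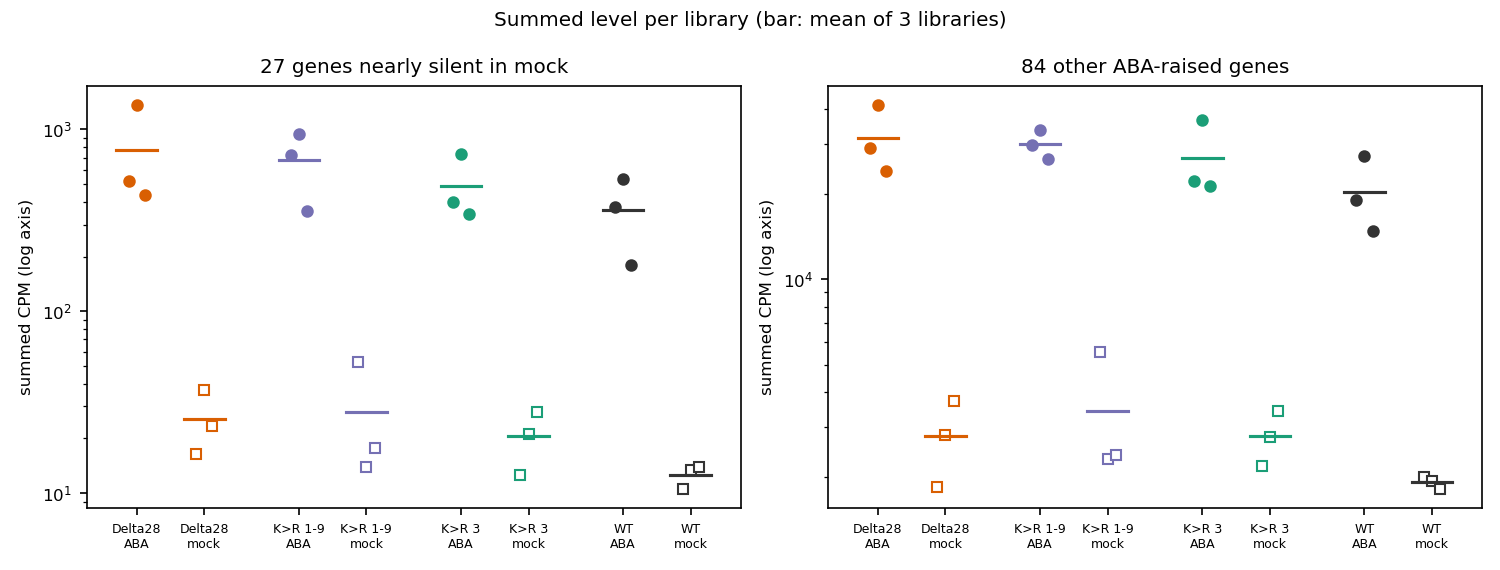
Summed CPM per library (log axis) of the 27 genes on the left and of 84 other ABA-raised genes on the right, in ABA leaves (filled) and mock leaves (open), with the mean of 3 libraries as a bar. In both panels Delta28 replicate 2 is the highest ABA library and WT replicate 3 the lowest.

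At the thresholds, LBD1 (1.42 CPM) and AT3G27025 (1.38 CPM) were the genes just inside the mock limit, and AT3G03170 (1.59 CPM) and CYP707A3 (1.61 CPM), an ABA-degrading enzyme, were just outside. BT2 (8.09 CPM) and AT1G53100 (8.83 CPM) were just inside the ABA limit, and HVA22B (7.5 CPM) and AT5G22460 (6.96 CPM) just outside. Of 35 genes of the seed maturation programme 29 had an entry, none was among the 27, 25 were under both thresholds and 11 were at 0 in all ABA libraries. Those at 0 on the minus strand, where a 0 says little, were CRA1, OLEO2, HSD1, LEC1, LEC2 and ECP31. The plus-strand genes at 0 were CRB, CRC, OLEO3, PER1 and RAB28. Of the 29, 8 were tested and none was called between genotypes in ABA leaves. The genes not under both thresholds were CLO3, with means of 220 CPM in ABA and 25.4 CPM in mock leaves, and SUS3, with 91.0 and 5.79 CPM. OLEO4 (9.57 and 9.59 CPM) and DOG1 (2.73 and 2.58 CPM) were the others. Of the genes under both thresholds, the highest ABA means were those of AHG1, a seed phosphatase of the HAI1 clade, at 4.40 CPM, and EM1, at 2.65 CPM. Others under both thresholds also had reads in ABA leaves, with M10 next at a mean of 1.67 CPM. The AHG1 mean was 1.69 CPM without Delta28 ABA replicate 2, where it had 34.2 CPM.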

How the data were processed

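RNA from leaves was read from the 3′ end of polyadenylated transcripts (QuantSeq FWD V2), per the labels' protocols, in 24 libraries of 8 groups taken from the labels. Trim Galore, STAR and RSEM were used, per the submitters' processing notes; the versions, genome build and annotation were not given in the sources used here. The values used were the expected counts per gene deposited by the authors, which are RSEM's estimates before normalization. Between 1.21% and 2.36% of the values of a library were not whole, and they were rounded for tests. CPM was computed from each library's total. Tests used edgeR 4.0.16 in R 4.3.3: filterByExpr, TMM scaling, a mean per group over all 24 libraries (16 residual degrees of freedom), quasi-likelihood F tests, and Benjamini-Hochberg adjustment over 13874 genes, called at 0.05. The SE is the log2 fold change divided by the root of F. The edgeR steps were tested on simulated data. DESeq2 1.42.0 was an alternative. Others were another scaling, no filter, one treatment's libraries alone, plus-strand genes alone, a replicate block and each library left out.

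Members and lists were chosen with earlier results of these data known. Named with values were the 15 genes outside the families with the highest ABA mean, 6 of the families, those with the lowest adjusted p in each comparison and the 2 genes on each side of each threshold; other members are named to account for all 27, and AMY1 in mock leaves as the gene called. Levels are CPM over library totals and fold changes are TMM-scaled. Replicate numbers were not taken to pair libraries, since in no comparison were all 3 correlations of same-numbered deviations above 0.1. The summed ABA level of the 27 did follow the number, with replicate 2 highest and replicate 3 lowest in every genotype. The main fit has no replicate term, and the replicate block was run as an alternative. Counting intervals (95%, exact) and limits from 0 counts cover counting error alone. Folds over a limit from 0 counts take the mutant's rate as counted, so they are not lower bounds on the fold.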

Additional observations from a re-analysis of the deposited data

How the results depend on the processing

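In the 6 comparisons of ABA leaves, edgeR called 0 of the 27 genes under each alternative run, including each library left out, while DESeq2 called 1 for K>R 1-9 against WT and 3 in the joint test. Only 12 of the 27 were tested with plus-strand genes alone, so the 0 there covers those 12. In mock leaves the 1 gene called for K>R 1-9 against WT became 0 with library totals alone or the replicate block, 0 to 2 over left-out libraries (2 without K>R 1-9 replicate 2, which added SAG29) and 3 with DESeq2; DESeq2 also called 1 for Delta28 against WT. With plus-strand genes alone, or mock libraries alone, the count was 0 because AMY1 was not among the genes tested. The fold changes of single genes below changed sign without Delta28 ABA replicate 2, and the median of the 27 for K>R 3 against WT without K>R 3 ABA replicate 2. HSFA6B ranged over left-out libraries from -1.04 to 2.76 for Delta28 against WT, from -3.38 to 0.81 for K>R 1-9 against Delta28, and from -3.02 to 0.75 for K>R 3 against Delta28. ZF14 ranged from -3.11 to 0.087 for K>R 1-9 and from -3.22 to 0.18 for K>R 3, both against Delta28, and CYP81G1 from -2.79 to 0.32 for K>R 1-9 against Delta28. The cause was not tested. ZF14 for Delta28 against WT ranged from 0.21 to 3.43. The median of the 27 in ABA leaves ranged from -0.18 to 0.71 for K>R 3 against WT, from -1.24 to -0.07 for K>R 3 against Delta28, from -0.93 to 0.32 for K>R 1-9 against Delta28 and from -0.55 to -0.15 for K>R 3 against K>R 1-9. Leaving libraries out of summed levels and pooled mock counts, and HIPP22 out of the sums, was chosen after seeing the data.

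Counts over all genes moved more. For ABA leaves the calls were 16 for Delta28 against WT (25 with library totals alone, 25 with plus-strand genes alone, 5 with ABA libraries alone, 82 with DESeq2, 2 to 10 over left-out libraries), 14 for K>R 1-9 against WT (53 with library totals, 2 with ABA libraries alone, 181 with DESeq2, 1 to 17 left out) and 1 for K>R 3 against WT (2 with ABA libraries alone, 46 with DESeq2, 1 to 151 left out, the 151 without K>R 3 replicate 3). Between mutants they were 1 for K>R 1-9 against Delta28 (72 with DESeq2, 0 to 2 left out), 16 for K>R 3 against Delta28 (0 with ABA libraries alone, 127 with DESeq2, 1 to 92 left out, the 92 without K>R 3 replicate 3) and 0 for K>R 3 against K>R 1-9 (1 with library totals or ABA libraries alone, 15 with DESeq2, 0 to 26 left out, the 26 without K>R 3 replicate 3). For mock leaves they were 22 for Delta28 (34 with plus-strand genes, 5 with mock libraries alone, 84 with DESeq2, 4 to 12 left out), 34 for K>R 1-9 (4 with mock libraries alone, 341 with DESeq2, 1 to 42 left out) and 1 for K>R 3 (76 with DESeq2, 1 to 13 left out, the 13 without K>R 3 replicate 1), each against WT. The joint test called 23 (47 with library totals, 57 with plus-strand genes, 2 with ABA libraries alone, 339 with DESeq2, 4 to 69 left out, the 69 without K>R 3 replicate 3).

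Correlations of same-numbered deviations lay between -0.24 and 0.27, so the replicate numbers were not taken to pair libraries. The summed ABA level of the 27 nevertheless had the same order of replicates in every genotype. With the replicate block the calls became 8 for K>R 1-9 against WT and 0 for K>R 1-9 against Delta28 in ABA leaves; 14 and 15 genes were called for Delta28 against WT and K>R 3 against Delta28. The number of genes meeting the rule was 16 with a mock limit of 1.0 CPM, 46 with an ABA limit of 5 CPM, 15 with an ABA limit of 12 CPM, and 20 to 32 over left-out libraries, lowest without Delta28 ABA replicate 2 and highest without K>R 1-9 mock replicate 1. Medians in place of means gave 26 genes, 17 of them among the 27. In mock libraries 1.5 CPM is 2.35 to 19.7 reads, so single-gene differences there are near the counting limit.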
